A study of Mus musculus with 3 samples.

Results

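The genes described are 7 caspases, Casp1, Casp2, Casp4, Casp6, Casp8, Casp9 and Casp12, and the inflammasome adaptor Pycard. They were chosen by name, and every probe set that the platform annotation pairs with one of these symbols and no other was taken. This gave 14 probe sets of the 34945 with 1 symbol, or 8 genes of 18193. Pycard, Casp9, Casp6 and Casp12 have several probe sets and the others have 1.

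RNA was hybridised to Affymetrix Mouse Genome 430 2.0 arrays, on which sets of short oligonucleotides report each transcript. It came from primary epidermal keratinocytes of neonatal ICR mice. There were 2 RASSF9-/- arrays and 1 WT array, each from 1 mouse and 1 plate of confluent cells in low-calcium keratinocyte serum-free medium. The RASSF9-/- mice are homozygotes of a single line, in which an Epstein-Barr virus LMP1 transgene went into the first intron of Rassf9 with a deletion. In these arrays the transgene and the loss of Rassf9 cannot be told apart. The paper detected no LMP1 transcript or protein in the skin of this line. It also reported that re-expressed RASSF9 raised filaggrin and loricrin in RASSF9-/- keratinocytes. The labels give 48 h of culture for RASSF9-/- and 24 h for WT, whereas the methods give the same time for all samples. If the labels hold, genotype and culture time cannot be told apart.

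Caspases are cysteine proteases that are made as inactive zymogens and cut their targets after aspartate. Initiator caspases are switched on by clustering on an adaptor platform: Casp8 at death receptors, Casp9 on the Apaf1 apoptosome and Casp2 on the PIDDosome. Inflammatory caspases are switched on by inflammasomes, often through Pycard (ASC), or by bacterial lipopolysaccharide inside the cell, and they cut interleukin-1 family cytokines and the pore-forming protein gasdermin D. In the epidermis caspase-8 also restrains necroptosis, and Casp14 takes part in cornification.

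Casp4 was the member that stood farthest from WT, with a signal of 190.4 on RASSF9-/- array 1 and 175.5 on RASSF9-/- array 2, against 40.2 on the WT array. Casp2 was lower on both RASSF9-/- arrays than in WT, at 897.2 and 703.4 against 1326.3. For Casp8 and Pycard the WT signal lay between those of the RASSF9-/- arrays, and Casp6 and Casp9 were more than 2-fold below WT on RASSF9-/- array 2 alone. Casp12 was not above background on any array, and Casp1 exceeded it on 1 array. No member passed the adjusted threshold of the test.

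Casp1, Casp4 and Casp12 follow one another on the same chromosome in the RefSeq annotation of GRCm38.p6. Of these, only Casp4 exceeded background on both RASSF9-/- arrays, and no difference among the neighbours was tested. The 150 bases before their transcription starts are shown. Casp2 is shown as the member that was lowest on both RASSF9-/- arrays by the smaller of its differences. All 4 lie on the plus strand and are written 5′ to 3′ from RefSeq, with matches to searched motifs in capitals. The Casp4 stretch is chr9:5308699-5308848, that of Casp1 is chr9:5298367-5298516, that of Casp12 is chr9:5345326-5345475 and that of Casp2 is chr6:42264835-42264984.
Casp4: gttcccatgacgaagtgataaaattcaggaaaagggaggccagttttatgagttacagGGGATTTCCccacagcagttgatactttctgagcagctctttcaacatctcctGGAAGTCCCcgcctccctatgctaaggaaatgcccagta
Casp1: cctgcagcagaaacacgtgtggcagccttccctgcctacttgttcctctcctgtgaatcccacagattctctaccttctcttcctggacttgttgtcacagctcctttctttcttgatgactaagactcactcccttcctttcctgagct
Casp12: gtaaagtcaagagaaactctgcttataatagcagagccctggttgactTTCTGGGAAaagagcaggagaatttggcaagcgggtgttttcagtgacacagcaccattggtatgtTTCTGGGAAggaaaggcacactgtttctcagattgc
Casp2: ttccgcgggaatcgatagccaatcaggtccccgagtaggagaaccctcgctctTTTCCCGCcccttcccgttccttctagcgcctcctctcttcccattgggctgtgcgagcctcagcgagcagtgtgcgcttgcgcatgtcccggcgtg

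Windows of 250 bases before and 50 bases after the start were taken for all 8 members, 2 of them for Casp4, which has 2 annotated starts, and were searched on both strands for 4 motifs. The Casp4 window shown held the NF-kB motif GGGANTTCC on the plus strand at -92 to -84 and on the minus strand at -39 to -31, counted from the start, and 1.68% of the 32851 promoter windows of the mouse held it at least once. Counted from the other Casp4 start, the same matches lie at -103 to -95 and at -50 to -42. The Casp12 window held the interferon-gamma activated sequence TTCNNNGAA at -102 to -94 and at -36 to -28, a motif found in 8.3% of windows. The Casp2 window held the E2F motif TTTCCCGC at -97 to -90, found in 1.07% of windows. The interferon-stimulated response element GAAANNGAA, found in 8.56% of windows, was in none of the members' windows. None of the 4 motifs was found in the windows of Casp1, Casp6, Casp8, Casp9 or Pycard. These are matches of letters and carry no measurement of binding.

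The deposited signals are on a linear scale in array units, scaled to a trimmed mean of 500 on every array. A signal of 78.4, the top value among 27 control probe sets for Bacillus subtilis genes, served as the background limit. Of the 14 probe sets of the members, 5 were above this limit on all 3 arrays, 4 on some arrays and 5 on none. Rassf9 checked the labels. Its brighter probe set 1427942_at read 59.6 and 120.2 on the RASSF9-/- arrays, against 478.1 on the WT array, which is at least 4.93-fold lower with signals under the limit raised to it. Its second probe set read 68.2 and 76.7 against 340.4, and the place of these probes relative to the deletion is not known.

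**Figure D1:**
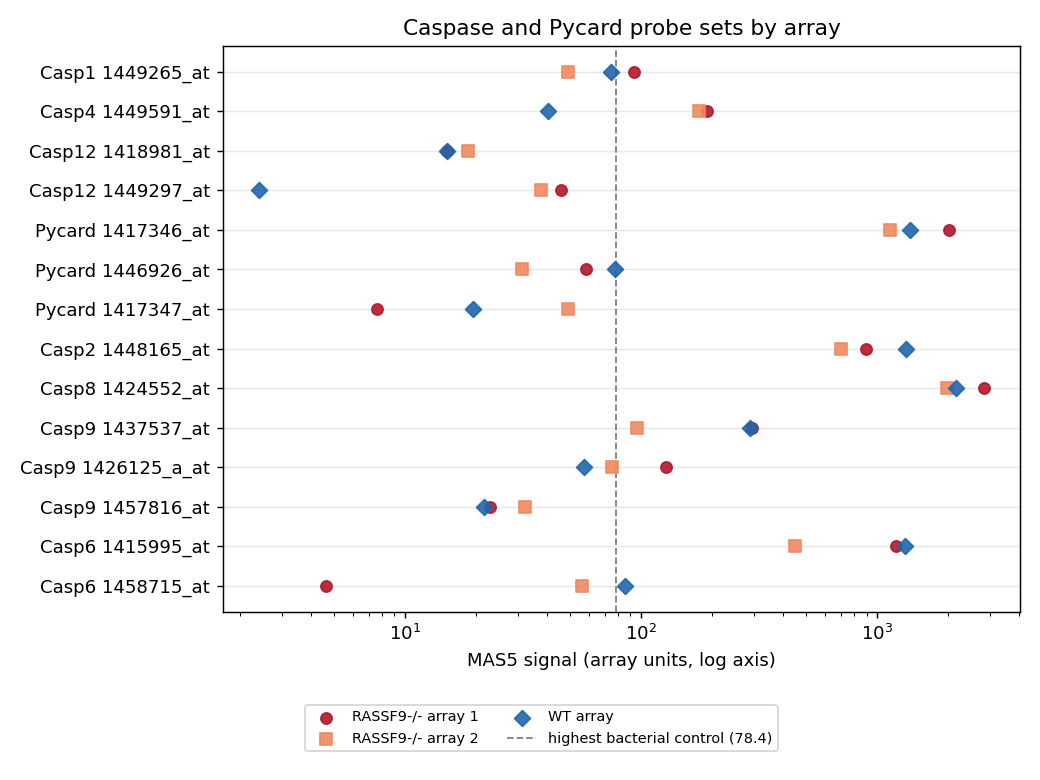
MAS5 signal (log axis) of each of the 14 probe sets of the members on RASSF9-/- array 1 (circles), RASSF9-/- array 2 (squares) and the WT array (diamonds), with single arrays as points and no error bars. Casp4 has both RASSF9-/- arrays right of the dashed background limit of 78.4 and the WT array left of it, and both Casp12 probe sets lie left of it on all arrays.

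For the test, the brightest probe set of each gene was used where its mean log2 signal reached the 50th percentile of all probe sets, a signal of 82.7. Of the members, Casp2, Casp4, Casp6, Casp8, Casp9 and Pycard passed, and Casp1 and Casp12 did not. Casp4 passed only through its RASSF9-/- signals, since its WT signal was under that value. RASSF9-/- was compared with WT by limma across 11089 genes, with Benjamini-Hochberg adjustment. The spread in this test comes from 2 RASSF9-/- arrays, since there is only 1 WT array.

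The limma test called 0 of the 6 members, and 9 of the 11089 genes, or 0.0812%, passed an adjusted p under 0.05. At an unadjusted p under 0.05 limma gave 1 member, Casp4, and 615 genes, or 5.55% of those tested. The methods name t-tests for statistical significance but give no test for the arrays. Such a t-test, here called the methods' t-test, took its spread from the 2 RASSF9-/- arrays alone. On the same values it gave 1 member, Casp4, and 4.45% of all genes before adjustment, and 0 members after it. Of the 6 members, 1, Casp4, was higher than WT on both RASSF9-/- arrays, as were 33.6% of all genes tested. Another 2, Casp2 and Casp6, were lower on both, as were 32.7% of all genes. The median log2 difference of RASSF9-/- from WT was -0.30 over the 6 members and -0.0084 over all genes tested.

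Casp4 encodes the mouse protein also known as caspase-11, which binds bacterial lipopolysaccharide in the cytosol and cuts gasdermin D. With 190.4 and 175.5 on the RASSF9-/- arrays, against 40.2 on the WT array, the log2 difference was 2.24 on array 1 and 2.13 on array 2. Both arrays lay above the single WT array, as they did for 33.6% of all genes tested. The limma estimate was 2.19 with an SE of 0.62 and an adjusted p of 0.561. Because the WT signal was under the background limit, the fold is given as a bound, at least 2.33-fold higher in RASSF9-/-. Casp4 was the 1 member that exceeded WT by 2-fold or more on both RASSF9-/- arrays, a size reached by 2.89% of all genes tested. A WT signal under the limit with both RASSF9-/- signals above it was found in 2.23% of genes. With all signals under the limit raised to it, the estimate was 1.22.

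Macrophages and Langerhans cells also express inflammatory caspases, and their markers were read beside Casp4. The summed signal of 14 such markers was 3511 and 3279 on the RASSF9-/- arrays, against 2157 on the WT array. Of these, 7 were tested and 3 were higher on both RASSF9-/- arrays, beside 33.6% of all genes tested. The test called 1 of the 7, beside 0.0812% of all genes. That marker was Lyz2, the lysozyme of myeloid cells, with 785.7 and 637.7 in RASSF9-/-, against 9.6 in WT (limma, adjusted p of 0.0359). Like Casp4, Lyz2 passed the filter only through its RASSF9-/- signals, and its call was lost with quantile normalization, no filter, a pseudocount of 32, the background limit as floor and no trend, with limma adjusted p-values of 0.0573 to 0.885. Ptprc, the leukocyte common antigen, Itgam, H2-Aa, H2-Eb1 and Cd207, which defines Langerhans cells, were under the limit on all arrays. Csf1r, the macrophage growth factor receptor, read 791.8 and 1685.7 in RASSF9-/-, against 784.4 in WT. The other 12 markers without Lyz2 and Csf1r summed to 1933 and 955.2 in RASSF9-/-, against 1363 in WT, so that WT lay between the RASSF9-/- arrays. Among them Laptm5, a lysosomal protein of blood cells, read 246.7 and 131.8 against 62.1, and the class II gene H2-Ab1 read 513.8 and 83.5 against 421.5. Cd68 read 350.8 and 407.0 against 394.7, Adgre1 read 115.2 and 83.5 against 113.0, and Cd74 read 178.3 and 53.5 against 71.7. For H2-Ab1, Cd68, Adgre1 and Cd74, WT lay between the RASSF9-/- arrays. The part of such cells in the Casp4 signal was not tested. In bulk RNA a change in the number of cells of a type and in RNA per cell cannot be told apart. These markers were named after their values were seen.

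**Figure D2:**
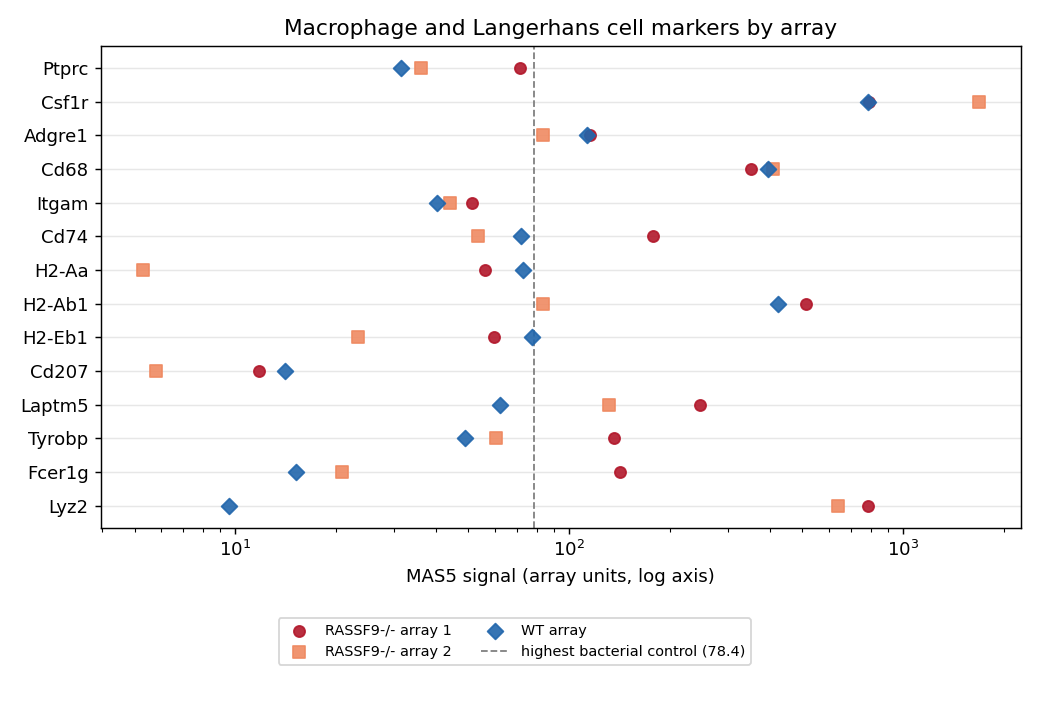
MAS5 signal (log axis) of 14 macrophage and Langerhans cell markers on RASSF9-/- array 1 (circles), RASSF9-/- array 2 (squares) and the WT array (diamonds), each point being 1 array. Lyz2 separates the genotypes most widely, at 785.7 and 637.7 against 9.6, while Cd207 lies left of the background limit of 78.4 on every array.

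By the Euclidean distance over both log2 differences from WT, the tested gene nearest to Casp4 was Procr, the endothelial protein C receptor. Procr read 948.5 and 870.4 on the RASSF9-/- arrays, against 200.9 on the WT array, at a distance of 0.0119. Pglyrp2, a peptidoglycan-cleaving enzyme, read 568.7 and 577.5 against 128.2 at a distance of 0.105. Pask, a kinase with a PAS domain, read 143.2 and 142.2 against 30.0 at a distance of 0.119. This likeness rests on 2 differences that share the WT array, and the WT signals of Casp4 and Pask were under the background limit, so the distances describe the deposited values only.

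Casp1, the protease that matures interleukin-1 beta and interleukin-18, read 93.1 and 49.1 on the RASSF9-/- arrays, against 74.6 on the WT array. The WT signal lay between both RASSF9-/- signals, and only RASSF9-/- array 1 exceeded the background limit. Casp12, a caspase of the same gene cluster linked to the endoplasmic reticulum, read 15.0 and 18.4 against 15.1 with probe set 1418981_at. Its other probe set, 1449297_at, read 45.9 and 37.6 against 2.4. All of these Casp12 signals were under the limit, so no fold is given, and the difference seen with 1449297_at is between signals that cannot be told from background.

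Pycard, which links sensor proteins to Casp1, had a bright probe set, 1417346_at, at 2011.1 and 1128.7 on the RASSF9-/- arrays, against 1373.1 on the WT array. WT lay between the RASSF9-/- arrays, with log2 differences of 0.55 and -0.28. The limma estimate was 0.13 with an SE of 0.46 and an adjusted p of 0.9996. Its probe sets 1446926_at and 1417347_at read 7.6 to 58.6 in RASSF9-/- and 19.3 to 77.6 in WT, under the limit on all arrays.

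Casp8, the initiator of death receptor signalling, read 2835.8 and 1970.5 on the RASSF9-/- arrays, against 2158.8 on the WT array. The log2 differences were 0.39 and -0.13, the groups overlapped, and the limma estimate was 0.13 with an SE of 0.39 and an adjusted p of 0.9996. When each array was divided by its median signal, the Casp8 difference on RASSF9-/- array 2 became 0.02, above WT.

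Casp2, the initiator that responds to extra centrosomes and DNA damage through the PIDDosome, read 897.2 and 703.4 on the RASSF9-/- arrays, against 1326.3 on the WT array. Both RASSF9-/- arrays lay below the single WT array, as they did for 32.7% of all genes tested. The log2 differences were -0.56 and -0.92, and the limma estimate was -0.74 with an SE of 0.41, an unadjusted p of 0.118 and an adjusted p of 0.9996. An estimate as low or lower was found for 990 genes, or 8.93% of those tested. No member was at least 2-fold lower on both RASSF9-/- arrays, as 2.24% of all genes tested were.

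Casp9, the initiator of the mitochondrial route, read 293.3 and 95.5 with probe set 1437537_at on the RASSF9-/- arrays, against 288.7 on the WT array. The log2 difference was 0.02 on array 1 and -1.60 on array 2, and only 4.36% of genes had as large a gap between the RASSF9-/- arrays. The limma estimate was -0.79 with an SE of 0.78 and an adjusted p of 0.9996. Probe set 1426125_a_at read 127.1 and 75.4 against 57.3 and thus did not show the same order of arrays, although only RASSF9-/- array 1 was above the limit there. Probe set 1457816_at was under the limit on all arrays, at 22.8 and 32.2 against 21.6.

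Casp6, a caspase that cuts lamin A, also differed more between the RASSF9-/- arrays than most genes did. Its bright probe set 1415995_at read 1195.4 and 447.2 on the RASSF9-/- arrays, against 1314.3 on the WT array, with log2 differences of -0.14 and -1.56. As large a gap between the RASSF9-/- arrays was found for 6.23% of genes. The limma estimate was -0.85 with an SE of 0.63 and an adjusted p of 0.9996. Probe set 1458715_at read 4.6 and 56.3 against 85.4, with only the WT array above the limit.

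In the deposited signals, all 6 tested members were lower on RASSF9-/- array 2 than on RASSF9-/- array 1. So were 6080 genes, or 54.8%, of all genes tested. On array 2, 5 of the 6 were lower than WT, and on array 1, 2 of the 6 were. The median log2 difference from WT over the members was 0.21 on array 1 and -0.60 on array 2, beside 0.05 and -0.04 over all genes. The image file names carry the same date for RASSF9-/- array 1 and WT and another date for RASSF9-/- array 2, so the date moves with this split, and its part was not tested. Dividing each array by its median moved the median of all genes to -0.08 on array 1 and 0.11 on array 2. The Casp9 difference on array 1 was then -0.10, and those of Casp2, Casp4, Casp6 and Pycard kept their sign on both arrays. For Casp4 the differences were then 2.12 on array 1 and 2.28 on array 2, so its order of arrays turned round. With quantile normalization it did so too, at 2.16 and 2.20.

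**Figure D3:**
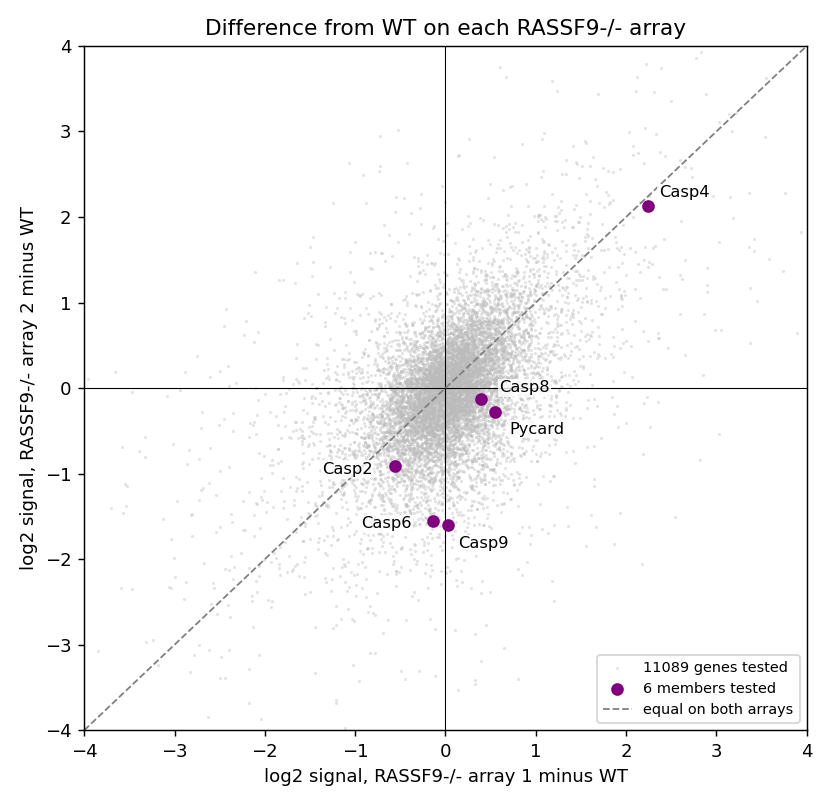
Log2 signal of RASSF9-/- array 1 minus WT (horizontal) against RASSF9-/- array 2 minus WT (vertical) for 11089 genes (grey) and the 6 members tested (purple), with a dashed line where both are equal; 47 genes fall outside the axes. Casp4 lies at the upper right at 2.24 and 2.13, and all 6 members lie below the dashed line.

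Partners and targets of these caspases were read from 7 lists of 59 genes, of which 42 were tested. Of these 42, 20 were higher than WT on both RASSF9-/- arrays and 7 lower, and limma called 0 after adjustment and 6 at an unadjusted p under 0.05. Their median log2 difference was 0.19. These counts stand beside the 33.6% of all genes that were higher on both arrays, the 32.7% that were lower and the 5.55% at that unadjusted p. The same shares apply to the counts of each list below, which hold few genes.

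Of the 9 tested genes of a list of interleukin-1 family members, gasdermins and the channel gene Panx1, 4 were higher and 2 lower on both RASSF9-/- arrays. Il1a, an alarmin cytokine of keratinocytes, read 3235.1 and 2688.2 in RASSF9-/-, against 486.2 in WT, with a limma estimate of 2.60, an SE of 0.37 and an adjusted p of 0.192. Il18, a cytokine matured by Casp1, read 370.2 and 537.6 in RASSF9-/-, against 1466.2 in WT, with an estimate of -1.72, an SE of 0.46 and an adjusted p of 0.527. Il1rn, which blocks the interleukin-1 receptor, read 927.0 and 1188.7 against 502.6, and the pore-forming gasdermin Gsdme read 300.6 and 419.6 against 163.9. None of these 4 genes passed the adjusted threshold. They could not overlap WT, since the naming rule takes only genes on the same side of WT on both RASSF9-/- arrays. Of all genes tested, 33.6% were higher and 32.7% lower on both arrays. Gsdmd, the gasdermin cut by Casp4 and named after its values were seen, read 312.6 and 137.6 in RASSF9-/-, against 96.1 in WT.

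Of 10 tested genes of the death receptor and necroptosis list, 6 were higher and 2 lower on both RASSF9-/- arrays. The necroptosis pair stood farthest from WT. Ripk3, the kinase that caspase-8 holds in check, read 771.8 and 1146.6 in RASSF9-/-, against 311.6 in WT (limma estimate 1.59, SE 0.46, adjusted p of 0.581). Its substrate Mlkl, which permeabilises the membrane, read 267.8 and 316.7 in RASSF9-/-, against 90.6 in WT (limma estimate 1.68, SE 0.55, adjusted p of 0.710). The receptor Fas was lower, at 154.2 and 174.3 against 267.9, and the adaptor Fadd was higher, at 352.9 and 476.8 against 275.6. The naming rule takes only genes on the same side of WT on both RASSF9-/- arrays, so these 4 could not overlap WT. Of all genes tested, 33.6% were higher and 32.7% lower on both arrays.

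**Figure D4:**
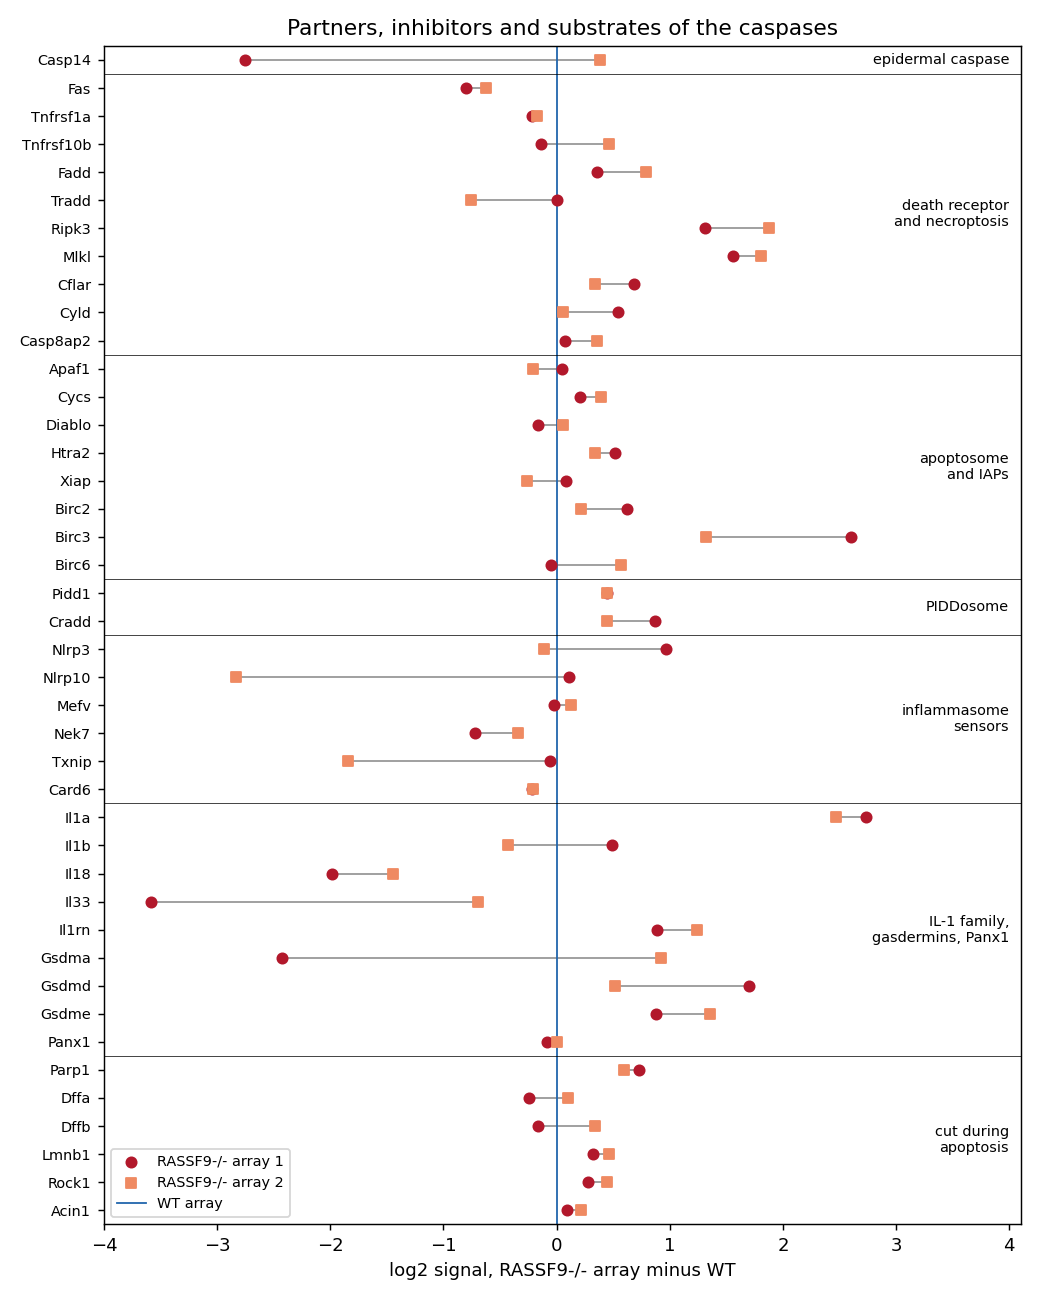
Log2 signal of RASSF9-/- array 1 (circles) and array 2 (squares) minus the WT array (line at 0) for the 42 tested partners, inhibitors and substrates, grouped by list, with a bar joining both arrays of a gene. Il1a, Birc3, Ripk3 and Mlkl lie to the right of 0 on both arrays and Il18 lies to the left on both, while Casp14 and Gsdma lie on opposite sides.

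All 8 genes of the apoptosome and caspase inhibitor list were tested, of which 4 were higher and 0 lower on both RASSF9-/- arrays. The shares over all genes tested were 33.6% and 32.7%. Birc3, an inhibitor of apoptosis protein that acts as a ubiquitin ligase, read 4949.8 and 2039.8 in RASSF9-/-, against 817.1 in WT (limma estimate 1.96, SE 0.56, adjusted p of 0.572). With the mean of its probe sets in place of the brightest, the Birc3 estimate was 1.10, and with a RASSF9-/- array left out it was 1.32 to 2.60. Its relative Birc2 read 789.9 and 596.1 against 511.8. Htra2, a mitochondrial protease that relieves such inhibitors, read 678.7 and 597.0 against 473.1, and Cycs, the cytochrome c of the apoptosome, read 14940.4 and 17008.1 against 12931.3. Both subunits of the PIDDosome that recruit Casp2 were higher on both RASSF9-/- arrays, in the opposite direction to Casp2. Pidd1 read 165.8 and 165.8 in RASSF9-/-, against 121.6 in WT (limma estimate 0.45, SE 0.58). Cradd read 226.5 and 169.0 against 123.9 (limma estimate 0.66, SE 0.58). Pidd1, Cradd and Casp2 did not pass the adjusted threshold, and the contrast in direction was not tested.

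Inflammasome sensors and regulators gave 0 genes higher and 3 lower on both RASSF9-/- arrays among 6 tested. Over all genes tested the shares were 33.6% higher and 32.7% lower. Of the 11 with a probe set, 3 were under the limit on all arrays. Nek7, which is needed for NLRP3 activation, read 2565.2 and 3336.6 in RASSF9-/-, against 4219.5 in WT. Card6 read 136.5 and 137.3 against 158.7. Txnip, a thioredoxin-binding protein, read 1239.8 and 360.0 against 1293.3 with its brightest probe set, which lay far below WT on RASSF9-/- array 2 only. The Txnip estimate was -0.95 with that probe set and -1.53 with the mean of its probe sets. The caspase of cornification, Casp14, read 196.6 and 1723.7 in RASSF9-/-, against 1324.3 in WT, with the opposite order of the RASSF9-/- arrays to that of the members. Of 6 listed proteins that are cut during apoptosis, 4 were higher on both RASSF9-/- arrays and 0 lower, beside the same shares. Parp1, the DNA break sensor, read 1042.3 and 954.9 against 630.2, and the nuclear lamin Lmnb1 read 296.1 and 328.3 against 237.6. The kinase Rock1 read 3095.5 and 3487.3 against 2559.1, and Acin1, a factor in chromatin condensation, read 1284.5 and 1403.1 against 1207.5.

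Krt14, a keratin of basal keratinocytes, read 38752.3 and 38300.2 on the RASSF9-/- arrays, against 38140.1 on the WT array, and the summed signal of 10 keratinocyte markers, to which keratins gave most, was 150300 and 182800 against 188600. Of these 10, 1 was higher and 6 were lower on both RASSF9-/- arrays, beside 33.6% and 32.7% of all genes, and limma called 0. Trp63, the transcription factor of the basal layer and named after its values were seen, read 1459.9 and 1542.9 in RASSF9-/-, against 3239.3 in WT (limma estimate -1.11, adjusted p of 0.689). Control probes at the 3′ end over those at the 5′ end, a reading of RNA quality, gave 0.832 to 0.939 for Gapdh and 1.37 to 1.41 for beta-actin in RASSF9-/-, against 0.841 and 1.43 in WT. All 6 melanocyte markers passed the filter, with summed signals of 24140 and 33890 against 28210. Neutrophil, mast cell, T cell, fibroblast and endothelial markers summed to between 151.2 and 1035 in RASSF9-/- and between 261.7 and 1320 in WT for each list.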

How the data were processed

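Keratinocyte RNA of 2 RASSF9-/- and 1 WT sample was hybridised to arrays. The values the authors deposited are MAS5 signals, an untransformed intensity for every probe set. Their mean on each array, after trimming 2% at both ends, was 500. Neither detection calls nor the methods' GeneSpring were used here. The number of arrays limits the precision, and the single WT array adds no spread. The limma p-values rest on the spread between the 2 RASSF9-/- arrays and on a prior drawn from all genes tested. The image file names of these 2 arrays carry different dates.

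The platform annotation pairs 34945 of the 45037 probe sets other than 64 controls with 1 symbol. A further 932 have several symbols and 9160 have none. RefSeq gene IDs matched 34741 of the probe sets (GRCm38.p6) and changed 0 symbols. Platform coordinates were not used, since the build is not named.

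Log2 signals, with no pseudocount, were compared with limma 3.58.1 (lmFit, then eBayes with a trend on intensity; R 4.3.3). The test was two-sided and had 1 residual and 5.31 prior degrees of freedom. All genes tested entered 1 fit with Benjamini-Hochberg adjustment, called at 0.05. The array date would leave no residual degree of freedom. The fit was also run on simulated data, with noise of equal size on all arrays. That simulation held no effect of array date or culture time, so it cannot address them. Lower-bound folds raise signals under 78.4 to it and compare WT with the geometric mean of RASSF9-/-.

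Members, lists and tests were chosen with earlier results of these data known. The rule for naming took all members, Rassf9, Casp14, up to 4 genes of each partner list (all genes in lists of 3 or fewer) that differed most from WT, by the smaller of both RASSF9-/- arrays' differences of equal sign, and the 3 genes nearest to the member farthest from WT. Some listed items are not reported here. Alternatives were division by the array median, quantile normalization, no filter or a 75th percentile filter, a pseudocount of 32, the mean of probe sets, the background limit as floor, no trend, the methods' t-test, folds of 1.5 and 3, and leaving out each RASSF9-/- array.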

Additional observations from a re-analysis of the deposited data

How the results depend on the processing

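Of the members, Casp4 kept its direction under all alternatives that held it, with log2 estimates of 1.22 to 2.20 with both RASSF9-/- arrays in the fit and a smallest adjusted p of 0.448. Its estimate was 1.57 with a pseudocount of 32 and 1.22 with the background limit as floor. The 75th percentile filter dropped Casp4 and Casp9. Casp2 ranged from -0.74 to -0.71 in the same fits. With a RASSF9-/- array left out the log2 difference changed sign for 4 genes, running from -0.13 to 0.39 for Casp8, -0.28 to 0.55 for Pycard, -1.60 to 0.023 for Casp9 and -2.75 to 0.38 for Casp14. Members higher on both arrays numbered 1, against 2 with each array divided by its median, 0 with the 75th percentile filter and 1 to 4 when a RASSF9-/- array was left out, and members lower numbered 2 to 5 when one was left out. Members called numbered 1 by the unadjusted methods' t-test.

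Genes called numbered 9, against 0 with quantile normalization, 5 with the 75th percentile filter, 5 with a pseudocount of 32, 0 with the background limit as floor, 0 without the trend, 4 with the adjusted methods' t-test and 493 unadjusted. Pidd1 had equal signals on both RASSF9-/- arrays, so its t-test is void, yet it is counted among these 4 and 493. Genes at least 2-fold higher numbered 320, against 1277 with no filter, 126 with the 75th percentile filter, 785 at 1.5-fold, 112 at 3-fold and 646 to 762 when a RASSF9-/- array was left out. Genes at least 2-fold lower numbered 248, against 896, 112, 686 and 87 under the same settings in the same order and 575 to 988 when one was left out. The cause of these moves was not tested. No paired analysis was possible because there is 1 WT array, so the groups share fewer than 2 replicate numbers.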
